A study of Mus musculus with 4 samples.

Results

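The Rab family was described in a map of SMAD4 binding in alveolar macrophages (AMs), which patrol the air spaces of the lung. Rab proteins are small GTPases that mark membranes. In the GTP-bound state each Rab sits on particular organelles and recruits effectors that move, tether or fuse vesicles. Guanine nucleotide exchange factors switch them on, and GTPase-activating proteins of the TBC family switch them off. Macrophages depend on them for phagosome maturation, lysosomal degradation, receptor recycling and secretion. SMAD4 is the common partner of receptor-activated SMADs and binds DNA downstream of TGFβ, a cytokine that AMs require.

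The members were all protein-coding genes of the curated RefSeq annotation whose symbol is Rab followed by digits and at most 1 letter, a rule that used no binding value. It found 59 of 20923 protein-coding genes on chromosomes 1 to 19 and X of the mm10 assembly. Antibody-bound chromatin was tagmented by HT-ChIPmentation in AMs that were collected by bronchoalveolar lavage from 9-wk-old WT C57BL/6J mice and sorted by flow cytometry into aliquots of 200000 cells. The series holds 4 samples: 2 SMAD4 libraries, here replicate 1 and replicate 2, and 2 input libraries, which were used only as the control in peak calling. All cells were WT AMs and no treatment is given, so the data hold no second condition, and nothing in the labels says whether the libraries came from separate mice. With 1 group of 2 libraries no test of a difference was possible, and every comparison below is a description. The labels and the methods of the study give different makers for the pair of SMAD4 antibodies.

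Replicate 1 had 16369 peaks and replicate 2 had 19015, and 10964 regions were covered by a peak of each list with at least 1 bp of overlap (shared regions). The strength of a peak is its fold enrichment, the pileup of fragments at the summit over the control level, with 1 added to both. Summit pileups had a median of 17 fragments in replicate 1 and 14 in replicate 2, which limits the precision of any single fold. Sequencing depth is not given by peak lists. Of 10 marker genes of AMs, 9 had a shared region nearest to their transcription start site (TSS), with 32 regions in all, and Fabp4 had none. Of 10 markers of other lung or blood cells, 3 had such a region (Scgb1a1, Pecam1 and Ncr1, with 8 regions). Over all protein-coding genes the share was 21.5%, so the second list was not below that share. A peak does not measure expression, so these counts do not measure purity.

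A shared region was assigned to the gene with the nearest TSS. By this rule 21 of the 59 Rab genes (35.6%) had a shared region, against 21.5% of all protein-coding genes. Long genes collect more regions, and the median Rab gene spanned 22.9 kb against 16.8 kb over all genes. Each Rab gene was therefore set beside the 200 other genes nearest to it in length, and on average 23.1% of those had a shared region. The same order was seen in each library alone. Replicate 1 had a peak nearest to 24 Rab genes (40.7%, against 27.2% of all genes and 28% of genes of similar length). Replicate 2 had a peak nearest to 26 (44.1%, against 31.2% and 33.4%). Within 50 kb of a TSS, whichever gene was nearest, 30 Rab genes had a shared region (50.8%), against 37.5% of all genes and 40% of genes of similar length. Inside the gene itself 16 Rab genes held a shared region (27.1%), against 13.9% and 14.7%. This measure was chosen after seeing the data. It overlaps the nearest-TSS count, since 23 of 30 regions inside Rab genes had the Rab TSS as nearest.

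In number of regions, 35 shared regions had a Rab TSS as nearest, a mean of 0.593 per Rab gene against 0.432 per gene of similar length. A single gene, Rab8b, held 7 of them, and without it the mean was 0.483 over 58 genes. The share of genes with a region was higher in longer genes, in Rab genes and in other genes alike. Protein-coding genes were divided by length into 5 bins of equal number. In the shortest bin 0 of 4 Rab genes had a shared region, against 9.54% of other genes, and in the longest bin 7 of 12 did, against 36.5% of other genes of that length.

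**Figure D1:**
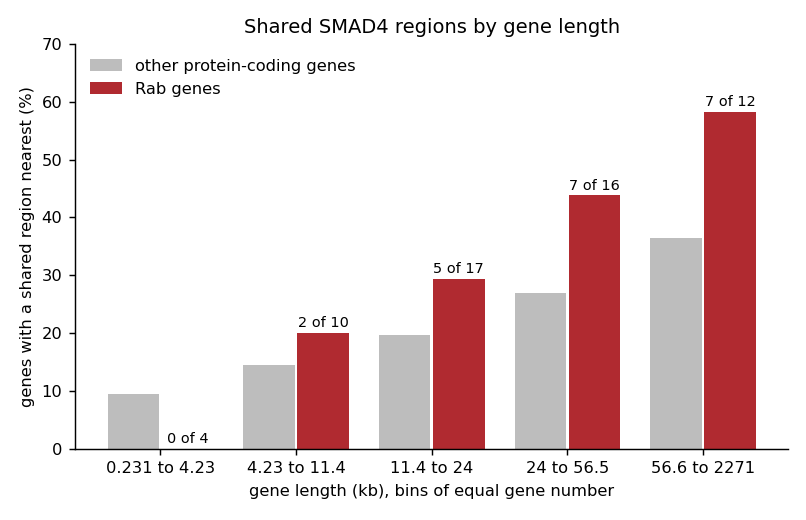
Percent of genes with a shared SMAD4 region nearest to their TSS (y axis) in 5 bins of protein-coding genes by length (x axis, kb), for other genes (grey) and Rab genes (red, with counts above the bars). The red bar is above the grey one in each bin but the shortest, where 0 of 4 Rab genes had a region, and the number of Rab genes per bin is 4 to 17.

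By role, the early endosome and phagosome group had the highest share under the nearest-TSS rule. A shared region was nearest to 5 of its 10 genes (Rab31, Rab21, Rab14, Rab5a and Rab5c), or 50%, against 22.8% of genes of similar length. The late endosome and lysosome group had 4 of 11 (Rab7, Rab7b, Rab29 and Rab32), or 36.4% against 21.2%. The regulated secretion group had 3 of 9 (Rab37, Rab44 and Rab3c), or 33.3% against 28.3%, near its background. The recycling and polarised exocytosis group had 3 of 10 (Rab8b, Rab10 and Rab11a), or 30% against 21.9%. The ER and Golgi group had 4 of 14 (Rab1a, Rab2a, Rab33a and Rab33b), or 28.6% against 22.4%. For groups of this size both shares were also near their backgrounds. Of 5 genes outside these groups, Rab28 and Rab40c had 1 region each (40% against 23%). Within 50 kb the order was not kept: the early endosome and the recycling groups each had 6 of 10, and the ER and Golgi group had 8 of 14. Shares of genes of similar length were not computed per group for this window. It caught 37.5% of all protein-coding genes, and 40% of genes similar in length to the 59 Rab genes. With 5 to 14 genes per group, 1 gene moves a share by several percent, and the groups were not tested against each other. The groups were drawn up with earlier results of these data known.

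**Figure D2:**
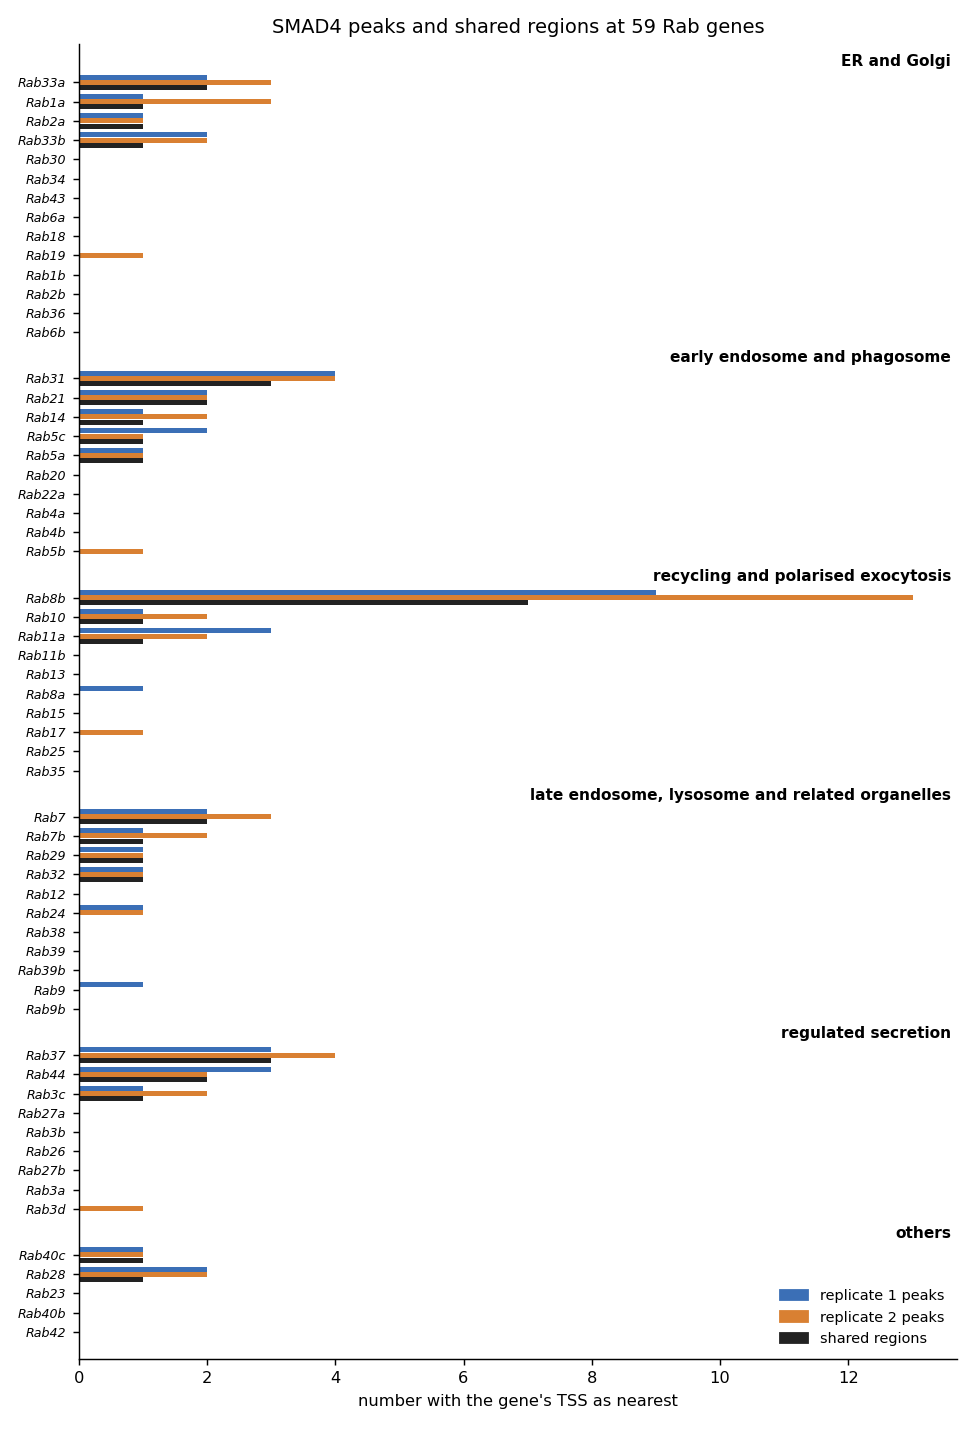
Number of replicate 1 peaks (blue), replicate 2 peaks (orange) and shared regions (black) with the TSS of each of the 59 Rab genes as nearest (x axis), grouped by role. Rab8b stands apart with 9 peaks, 13 peaks and 7 shared regions, Rab31 and Rab37 follow with 3 shared regions each, and 38 genes have none.

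Rab8b, which directs vesicles from recycling endosomes and the Golgi to the plasma membrane, had 7 shared regions with its TSS as nearest, and both Rab31 and Rab37 had 3. Rab21, Rab33a, Rab44 and Rab7 had 2 each, and 14 genes had 1 each. Over all protein-coding genes 9.21% had at least 2 shared regions and 2.77% had at least 4. Of the 59 Rab genes 7 had at least 2, and 1, Rab8b, had at least 4. Of the 200 genes nearest to Rab8b in length (76 kb), 1% had as many regions as Rab8b, and their mean was 0.635. Rab8b was picked here for having the highest count of the 59 Rab genes, so this 1% does not measure how unusual it is.

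All 7 Rab8b regions lay in its introns, between 10.8 and 40 kb downstream of the TSS. By the smaller of the library folds, by which regions are ranked throughout, the strongest was at chr9:66879302-66879943, with 15.6-fold enrichment in replicate 1 and 18-fold in replicate 2, from 47 and 39 fragments. The next, at chr9:66881595-66882481, had 14.6 and 22.6-fold from 44 and 49 fragments, and was the stronger of the pair in replicate 2. Between them lay a weaker region, chr9:66880386-66880848, with 7.76 and 11.3-fold. The summits of these 3 regions lay within 3 kb of each other. Nearer to the TSS, at 10.8 kb, chr9:66908674-66909129 had 10.1 and 11.3-fold. The region at 25.4 kb was stronger in replicate 1 (11-fold, 33 fragments) than in replicate 2 (7.22-fold, 15 fragments), against the usual direction. The remaining pair, at 31.6 and 32.7 kb, had 6.5 and 5.85-fold in replicate 1 and 9.02 and 5.44-fold in replicate 2. A further 2 intronic peaks were found only in replicate 1 and 4 only in replicate 2. The paralogue Rab8a had no shared region nearest, only 1 replicate 1 peak at 4.87-fold in its intron.

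The 201 bp around 3 Rab8b summits are printed here because they carried the highest counts, or, for the last, a C/EBP string at the summit itself. Sequences are 5′ to 3′ on the plus strand of mm10 from RefSeq. Capitals mark strings that were searched for, on both strands: TTGCNNAA for C/EBP, GAGGAAGT for PU.1, CAGGAAGT for other ETS factors, TGAGTCA for AP-1, TGTGGT for RUNX, GTCTGG for SMAD, AGGTCA for nuclear receptors and the others named below. The strongest windows held none of them, and the third held GTCTGG and TTGCACAA, the latter starting at the summit.
Rab8b chr9:66879614-66879814: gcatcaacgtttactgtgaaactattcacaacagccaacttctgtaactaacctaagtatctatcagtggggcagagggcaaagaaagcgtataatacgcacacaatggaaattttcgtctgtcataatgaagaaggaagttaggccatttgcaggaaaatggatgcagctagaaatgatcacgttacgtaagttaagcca
Rab8b chr9:66881959-66882159: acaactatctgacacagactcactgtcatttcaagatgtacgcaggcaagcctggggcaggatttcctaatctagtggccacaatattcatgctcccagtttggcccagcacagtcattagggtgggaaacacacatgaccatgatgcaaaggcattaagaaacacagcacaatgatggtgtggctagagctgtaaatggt
Rab8b chr9:66908756-66908956: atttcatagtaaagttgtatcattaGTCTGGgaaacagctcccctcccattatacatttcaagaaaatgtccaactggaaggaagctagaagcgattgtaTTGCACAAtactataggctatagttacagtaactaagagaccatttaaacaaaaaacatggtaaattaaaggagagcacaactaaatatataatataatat

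Rab37, linked to regulated secretion and mast cell degranulation, held 5 shared regions, 3 of them intronic with its own TSS as nearest. The folds of these 3 in replicate 1 were 15.6, 9.1 and 5.85, and in replicate 2 they were 18.5, 11.7 and 6.77. The strongest, chr11:115110217-115110910, lay 19.1 kb downstream of the TSS, with 47 and 40 fragments. Rab37 overlaps and adjoins the Cd300 genes, which encode receptors of myeloid cells. Within 50 kb of its TSSs there were 11 shared regions in all, 8 of them nearer to another gene. Among these were regions of 17.9 and 28-fold upstream of Cd300e, 11 and 14.9-fold at the promoter of Cd300lf, which starts within Rab37, and 23.1 and 28.9-fold in Tmem104. Which gene any of these regions acts on was not measured.

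Rab31, which acts between the Golgi, endosomes and phagosomes, held 4 shared regions, 3 of them intronic with its own TSS as nearest. At chr17:65718409-65719051, 54.1 kb downstream of the TSS, the fold was 14 in replicate 1 and 23 in replicate 2, from 42 and 50 fragments. The others of these 3, at 42.2 and 37.4 kb, were weaker in both libraries (5.2 and 4.87-fold in replicate 1, 8.12 and 9.93-fold in replicate 2). The windows of the strongest Rab37 and Rab31 regions contrast a window with no searched string and a window with a C/EBP string, TTGCCTAA.
Rab37 chr11:115110389-115110589: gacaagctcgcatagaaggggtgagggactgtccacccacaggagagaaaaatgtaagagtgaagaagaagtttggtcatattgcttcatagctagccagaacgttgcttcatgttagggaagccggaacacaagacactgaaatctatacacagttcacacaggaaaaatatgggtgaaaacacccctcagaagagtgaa
Rab31 chr17:65718585-65718785: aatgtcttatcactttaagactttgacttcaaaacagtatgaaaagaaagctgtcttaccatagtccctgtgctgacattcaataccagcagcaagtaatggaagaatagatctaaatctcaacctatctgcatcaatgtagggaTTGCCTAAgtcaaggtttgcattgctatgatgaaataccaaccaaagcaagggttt

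**Figure D3:**
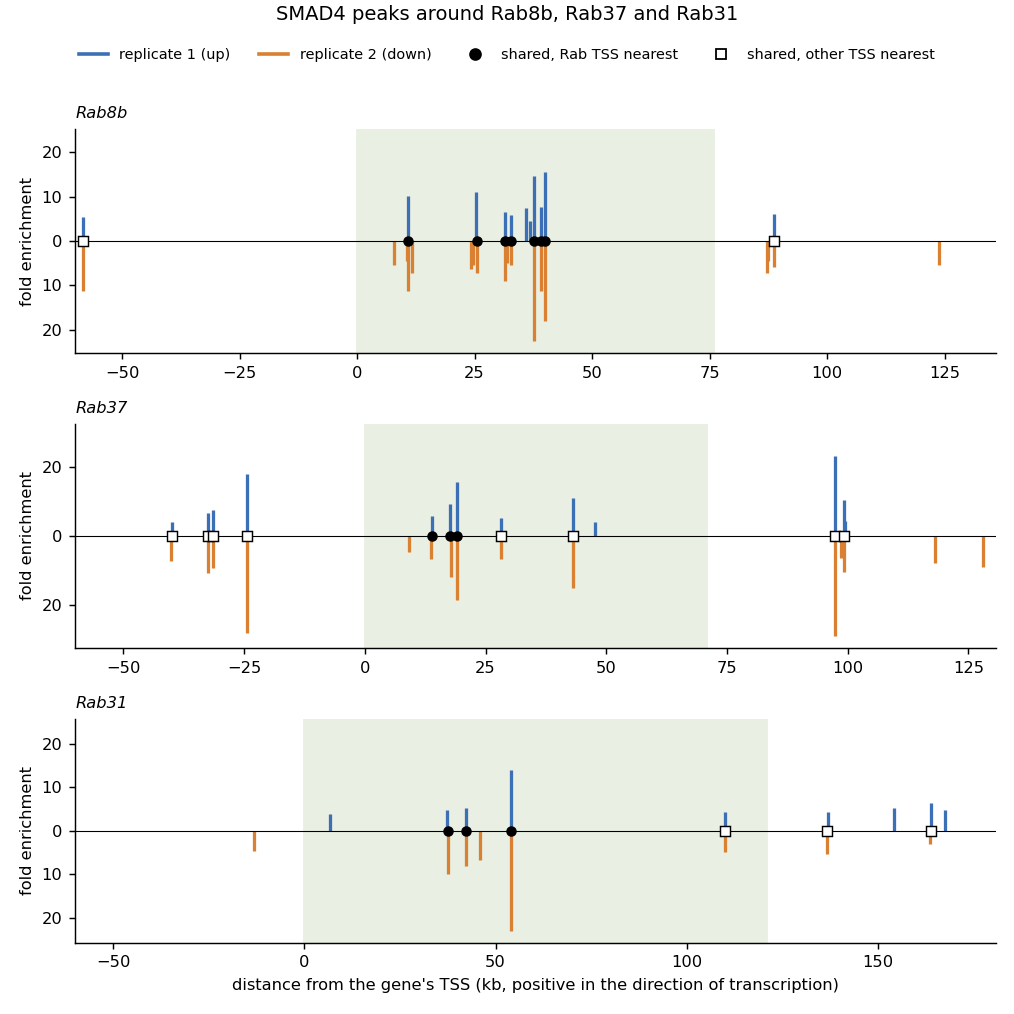
Fold enrichment of every peak (y axis) of replicate 1 (blue, up) and replicate 2 (orange, down) against distance of its summit from the outermost TSS (x axis, kb) at Rab8b, Rab37 and Rab31, with the gene shaded. Filled circles are shared regions with the Rab TSS as nearest, and open squares those nearer to another TSS. Rab8b holds its 7 regions between 10.8 and 40 kb, and regions nearer to other genes lie on both sides of Rab37, with 2 inside it.

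Among the other genes of the early endosome group, Rab21, which controls integrin endocytosis, had a promoter region. At chr10:115315849-115316142, 0.426 kb upstream of the TSS, it had 8.77-fold in replicate 1 and 9.48-fold in replicate 2 (26 and 20 fragments). A weaker region in its intron had 4.55 and 5.87-fold. Rab14, which acts on early endosomes and phagosomes, had an intronic region 5.05 kb from the TSS of the same strength as the Rab21 promoter (8.77 and 9.48-fold). Rab5a and Rab5c, which drive fusion of early endosomes, had 1 region each. Rab5a bound 9.54 kb into the gene (5.52 and 8.12-fold). The Rab5c region, at the promoter, was far stronger in replicate 2 (12.2-fold, 26 fragments) than in replicate 1 (5.2-fold, 15 fragments), and the summits lay 257 bp apart. The paralogue Rab5b had a promoter peak in replicate 2 alone, at 9.93-fold. Rab4a, Rab4b and Rab22a had no shared region nearest or within 50 kb.

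In the late endosome and lysosome group, the strongest region belonged to Rab29, which recruits the kinase LRRK2 to membranes. It lay at chr1:131866351-131866857 in the promoter, 0.73 kb upstream of the TSS, with 10.4 and 14-fold (31 and 30 fragments). It was the strongest of the 5 promoter regions of Rab genes in both libraries. Rab32, which acts on lysosome-related organelles, had an intronic region 2.7 kb from the TSS (7.8 and 7.67-fold). Rab7, needed for fusion of late endosomes and phagosomes with lysosomes, had only weak nearest regions: 4.87 and 5.41-fold in its intron, and 4.27 and 5.87-fold 15.5 kb upstream. A much stronger region, chr6:88068604-88069304, lay 23.7 kb upstream of Rab7, nearer to Rpn1, with 18.2 and 36.5-fold from 55 and 80 fragments. Rab7b, which works between late endosomes and the Golgi, had 1 intronic region (6.5 and 8.12-fold). Rab7 and Rab7b also had promoter peaks in replicate 2 alone, each at 6.32-fold. Rab9, Rab12, Rab24, Rab38 and Rab39 had no shared region nearest or within 50 kb.

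The promoter windows of Rab29 and Rab21 are shown as the strongest pair in that position by the smaller fold, although the Rab5c promoter exceeded that of Rab21 in replicate 2. The Rab29 window held no searched string. The Rab21 window held CCAGAC, the reverse complement of the SMAD string, 45 bp before the summit, ACTTCCTC, that of the PU.1 string, 10 bp before it, and a C/EBP string 91 bp after it.
Rab29 chr1:131866447-131866647: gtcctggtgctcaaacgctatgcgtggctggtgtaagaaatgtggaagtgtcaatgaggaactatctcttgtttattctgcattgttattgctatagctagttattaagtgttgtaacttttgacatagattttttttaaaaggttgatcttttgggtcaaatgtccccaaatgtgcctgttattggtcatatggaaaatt
Rab21 chr10:115315917-115316117: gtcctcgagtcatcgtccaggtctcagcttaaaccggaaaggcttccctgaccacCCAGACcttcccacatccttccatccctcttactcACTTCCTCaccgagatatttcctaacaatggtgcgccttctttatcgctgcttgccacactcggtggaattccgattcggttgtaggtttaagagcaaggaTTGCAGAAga

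In the ER and Golgi group, Rab2a, which acts in traffic between these compartments, had the strongest region. At chr4:8536670-8537227, in the intron 1.27 kb downstream of the TSS, it reached 10.4-fold in replicate 1 and 22.6-fold in replicate 2, from 42 and 53 fragments. The control level of replicate 1 there was 3.14 fragments, against 2.08 at most regions. Rab1a, needed for transport from the ER to the Golgi, had 1 region 32.3 kb upstream (5.2 and 12.6-fold). It also had a promoter peak in replicate 2 alone at 7.22-fold. Rab33a and Rab33b, Golgi Rabs of which the latter binds the autophagy protein ATG16L1, had no shared region in their own bodies. The Rab33b region lay in an exon of Setd7 (7.47 and 10.8-fold), and those of Rab33a lay downstream (6.5 and 9.48-fold, and 4.87 and 4.96-fold in an intron of Zfp280c). Rab1b, Rab2b, Rab6b, Rab18, Rab19 and Rab36 had none nearest or within 50 kb.

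Of the rest, Rab28 had an intronic region 80 kb from its TSS at chr5:41627294-41627938, with 13.3 and 13.5-fold. Its window and that of Rab2a are printed because they held the C/EBP string near the summit. The Rab28 window held 2 such strings, a RUNX string and an AP-1 string, TGAGTCA, 15 bp after the summit. The Rab2a window held TTGCACAA 18 bp before it.
Rab28 chr5:41627617-41627817: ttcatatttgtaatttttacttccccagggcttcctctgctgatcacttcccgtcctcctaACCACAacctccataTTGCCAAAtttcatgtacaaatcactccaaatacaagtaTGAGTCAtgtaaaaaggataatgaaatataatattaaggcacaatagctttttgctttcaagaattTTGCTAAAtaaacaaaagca
Rab2a chr4:8536818-8537018: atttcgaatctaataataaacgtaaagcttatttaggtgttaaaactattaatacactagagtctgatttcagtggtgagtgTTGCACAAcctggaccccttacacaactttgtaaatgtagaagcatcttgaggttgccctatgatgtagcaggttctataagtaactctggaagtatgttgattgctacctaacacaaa

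Rab3c, a Rab of synaptic vesicles and the longest member at 227 kb, had an intronic region 95 kb from the TSS (8.45 and 8.12-fold). Rab44, a large Rab with a role in granule secretion, had a promoter region 0.018 kb from the TSS (6.17 and 8.57-fold) and another 2.73 kb upstream (6.17 and 9.02-fold). Rab10 and Rab11a, which act in exocytosis and recycling, had 1 weak region each. That of Rab10 had 5.85 and 6.32-fold in its intron, and that of Rab11a had 6.5 and 8.12-fold in an intron of Megf11. The Rab40c promoter region had the lowest smaller fold of all 35 (3.9 and 5.87-fold, 11 and 12 fragments), although regions of Rab33a, Rab7 and Rab8b were weaker in replicate 2. Rab40c encodes a ubiquitin ligase component as well as a GTPase.

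The nearest-TSS rule missed regions inside some Rab genes. Rab20, a Rab of phagosomes, held 2 shared regions, both nearer to the TSS of the noncoding gene E230013L22Rik. The stronger, chr8:11463722-11464716, was intronic and had 13 and 20.3-fold from 39 and 44 fragments. Rab27a, needed for granule and exosome secretion, held an intronic region nearer to Khdc3, chr9:73089441-73090057, with 12 and 23.9-fold from 36 and 52 fragments. By the smaller of the library folds, both exceeded 30 of the 35 regions counted by the rule. Rab30 had 2 weak regions within its promoter, nearer to the divergent 4632427E13Rik (3.9 and 4.22-fold in replicate 1, 7.67 and 5.87-fold in replicate 2). In all, 33 of the 65 regions within 50 kb of a Rab TSS had another gene nearest. They brought in 11 Rab genes with no nearest region: Rab11b, Rab13, Rab20, Rab23, Rab27a, Rab30, Rab34, Rab3b, Rab43, Rab6a and Rab8a.

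Most of these regions lay at or in a neighbouring gene. The region within 50 kb of Rab8a, 22.8 kb downstream and nearer to Hsh2d, had 9.42 and 11.7-fold. That of Rab3b, which acts at synaptic vesicles, lay 44.9 kb upstream at the shared promoter of Btf3l4 and Txndc12 (9.1 and 14.9-fold). Rab43 and Rab6a, both Golgi Rabs, had a region in an intron of Cnbp (7.47 and 9.02-fold) and of Mrpl48 (6.82 and 7.22-fold). Rab13, a Rab of cell junctions, had 1 in an intron of Dennd4b, itself on the list of exchange factors below (6.5 and 7.22-fold). That of Rab34 was at the promoters of Nek8 and Tlcd1 and differed between the libraries (5.2-fold in replicate 1, 13.1-fold in replicate 2). Rab23, known from cilia, had 5.07 and 7.54-fold 48.4 kb upstream, and the 2 regions of Rab11b, the closer one in an intron of Angptl4, were weak in replicate 1 (4.87 and 4.55-fold). Genes with a nearest region had further ones too. Rab7b had 3 more, the strongest in an intron of Ctse, the gene for cathepsin E (10.1 and 18-fold), and Rab7 had 1 on its downstream side with 9.42 and 13.5-fold.

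A further 27 Rab genes had no shared region by either rule. Beside those named above, they were Rab15, Rab17, Rab25, Rab26, Rab27b, Rab35, Rab39b, Rab3a, Rab3d, Rab40b, Rab42 and Rab9b. For 15 of the 27, among them Rab1b, Rab4a, Rab12, Rab18, Rab22a, Rab27b and Rab35, neither library had a peak. The shares of all genes without a shared region by both rules, or without any peak, were not computed. Within 50 kb, 37.5% of all genes had a shared region, against 50.8% of Rab genes. The absence of a peak means that no enrichment was detectable at this depth, with at least 9 fragments under the summit of each replicate 1 peak and at least 7 under each replicate 2 peak.

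The regions at Rab genes were of ordinary strength. The median of the smaller of the 2 folds was 6.5 over the 35 regions, 6.5 over all 10964, and 6.33 without Rab8b. Of the 35, 3 were in the top 10% of all shared regions (8.57%, against 10.4% when ties are counted). Replicate 2 gave the higher fold in 31 of 35 regions (88.6%, against 87.2% of all), so the smaller fold was mostly that of replicate 1. A higher fold was not a higher pileup, since the median pileup at the 35 regions was 19 fragments in each library. At most regions the control level was 2.08 fragments in replicate 1 and 1.22 in replicate 2. Across the 35 regions the folds of the libraries had Spearman's rho of 0.699, against 0.782 over all shared regions. Both values are descriptions, since regions share their libraries. Of 47 replicate 1 peaks nearest to a Rab TSS 36 had a partner in replicate 2 (76.6%, against 69.4% of all peaks), and of 59 replicate 2 peaks 38 had one (64.4%, against 59.2%). Peaks without a partner were weaker, with medians of 4.55-fold against 6.5 in replicate 1 and 5.87-fold against 8.8 in replicate 2.

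**Figure D4:**
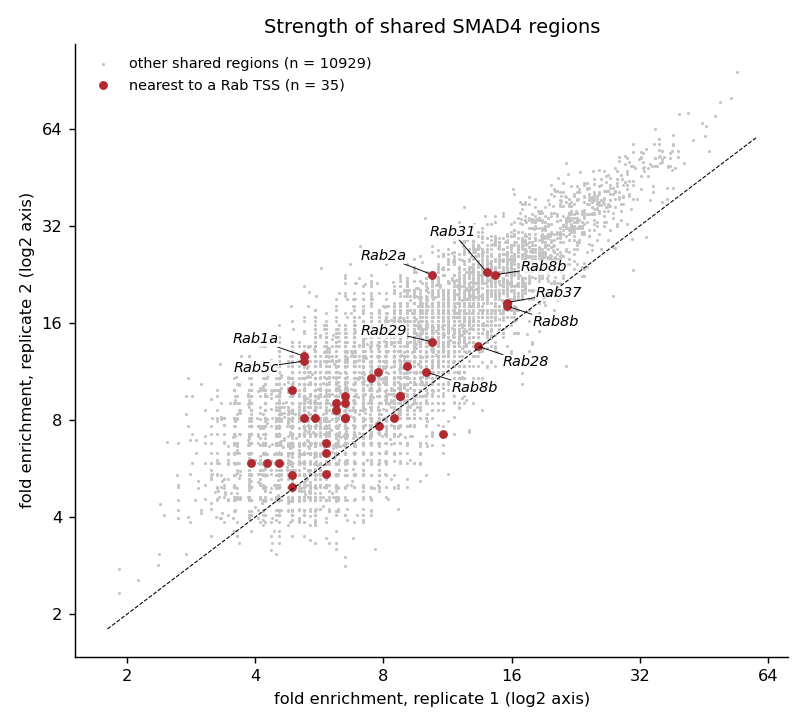
Fold enrichment in replicate 1 (x axis) and replicate 2 (y axis), both log2 axes, for the 35 shared regions nearest to a Rab TSS (red) and all others (grey), with the line of equal fold dashed. The red points lie within the grey cloud, from 3.9 to 15.6-fold in replicate 1, and 31 of 35 lie above the line.

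In position the Rab regions were mostly intronic. Introns held 25 of 35 (71.4%), against 49.3% of all shared regions and 50.5% of those nearest to genes of similar length, and 23 lay inside the Rab gene itself. Intergenic sequence held 4 (11.4%), against 40.5% and 38.5%. Without Rab8b the shares were 64.3% intronic and 14.3% intergenic. Promoters, from 1 kb upstream to 100 bp downstream of a TSS, held 5 regions (14.3%, against 6.42% and 7.16%). Upstream of the TSS lay 8 (22.9%, against 43.8% and 44.6%), or 28.6% without Rab8b. The median distance from the TSS was 17.9 kb, against 18 kb over all shared regions and 14.8 kb over those nearest to genes of similar length.

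Of 11 strings searched in 201 bp windows, the C/EBP string was the most frequent at Rab summits, in 12 of 35 (34.3%, against 40.9% of all shared regions). In windows 1 kb away from the summits it was found in 7.14% and 8.75%. The SMAD string was in 4 (11.4% against 11.2%), and in the windows 1 kb away it was about as frequent, at 12.9% and 10.4%. The RUNX string was in 9 (25.7% against 26.4%), the AP-1 string in 3 (8.57% against 8.91%) and the nuclear receptor string in 5 (14.3% against 15.4%). The ETS string was in 5 (14.3% against 5.62%), and the PU.1 string, which differs from it in its first letter, in 1 (2.86% against 8%). The E-box CACGTG was in 2 (5.71% against 3.65%). No Rab window held the STAT string TTCNNNGAA (8.06% of all), the SMAD palindrome GTCTAGAC (0.465%) or TCACGTGA (0.347%), the longer E-box of MiT factors. None of the 11 was found in 11 of 35 windows (31.4%, against 21.5%). With 35 windows a difference of a few windows moves these shares by several percent, and no string was tested.

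**Figure D5:**
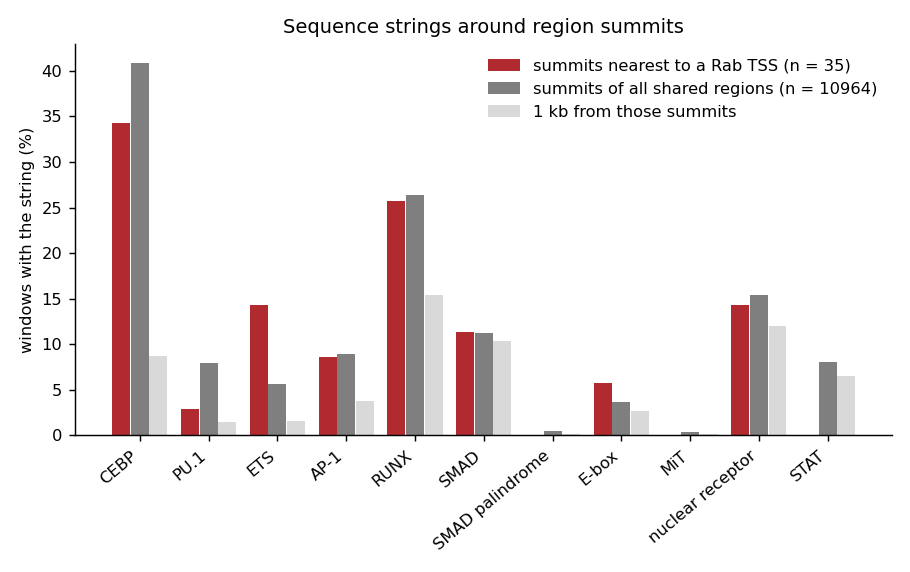
Percent of 201 bp windows that hold each string on either strand (y axis), at the 35 summits nearest to a Rab TSS (red), at all 10964 shared summits (dark grey) and 1 kb from the latter (light grey). The C/EBP bar is the tallest in both summit sets, at 34.3% and 40.9%, and falls to 8.75% in the flanks.

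The regulators and effectors of the family were described from lists written for this purpose, with earlier results of these data known. Of 39 GTPase-activating proteins of the TBC type, which return Rabs to the GDP-bound state, 19 had a shared region nearest (48.7%, against 21.5% of all genes and 30.9% of genes of similar length). Tbc1d9 had 6 regions, Tbc1d1 5, and Evi5, Tbc1d14, Tbc1d2, Tbc1d2b, Tbc1d9b and Usp6nl 3 each. Among these named genes, the strongest region was that of Tbc1d2b (21.8 and 35.2-fold), and the best of Tbc1d14 had 16.6 and 25.7-fold. Of 36 exchange factors 13 had a region (36.1%, against 29.3% of genes of similar length), a small difference for a list of this size. Dennd4a and Rin3 had 7 each, Rin2 had 6, and Dennd4c and Dennd2d had 4 each. RIN proteins activate RAB5, and the strongest Rin2 region, in an intron, had 18.5 and 31.6-fold. Of 7 genes of the membrane cycle 1 had a region (14.3%, against 19.4% of genes of similar length), near the background. It was Rabggta, a subunit of the enzyme that attaches the lipid anchor (15.9 and 24.8-fold).

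Of 60 effectors 17 had a shared region (28.3%, against 30.6% of genes of similar length), so this list lay near its background. Within it, Lrrk2, the kinase that RAB29 recruits and that phosphorylates RAB8 and RAB10, had 7 regions, the strongest 40 kb upstream at 29.6 and 43.8-fold. Eea1, the early endosome tether that binds RAB5, had 3 (up to 22.1 and 34.7-fold). None of the Eea1 regions lay within 50 kb of its TSS, and the strongest was 75329 bp downstream. Plekhm1, a RAB7 effector at lysosomes, had 2 (up to 25 and 40.2-fold), as did Rilpl2, Acap2, Myo5a and Rab11fip1. The best regions of Lrrk2, Eea1 and Plekhm1 had higher folds in both libraries than any of the 35 regions nearest to a Rab TSS. The same held for the best regions of Tbc1d2b, Tbc1d14, Rin2 and Rabggta in the lists above. These are the highest folds picked from lists with 38 regions (exchange factors), 45 (GTPase-activating proteins), 30 (effectors) and 1 (membrane cycle). The medians of the smaller fold in the first 3 lists were 6.17, 6.5 and 7.01, against 6.5 at the 35 Rab regions.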

How the data were processed

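SMAD4 HT-ChIPmentation was analysed in 2 libraries of sorted mouse AMs. Per the study's methods, the authors trimmed reads with Cutadapt 1.7.1, aligned them to mm10 with Bowtie2, kept proper pairs above the mapping quality limit and without duplicates with samtools 0.1.18, and called peaks per library against input with MACS3 3.0.0a5 at q 0.05. Which input was paired with which library is not given in the sources used here. The deposited lists give, per peak, a fold (ratio) of summit pileup over control, −log10 p-values and q-values, the offset of the summit and a whole-number score, which was not used. Summit fragments and control levels were solved from the deposited fold and −log10 p-value, with 100% of peaks solved within 0.001.

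Shared regions, nearest TSSs and windows of 50 kb were computed with Python 3.11.15, pandas 2.3.3 and pysam 0.24.0 over 45657 curated RefSeq transcripts of 26089 genes. The summit of a shared region is the mean of the summits of its strongest peak in each list. The share for genes of similar length is the mean, over Rab genes, of the share among the 200 genes nearest in log length. For position and distance, the 3910 regions nearest to any of these genes (8773 in all) were pooled instead. The steps were tested on simulated data. No test was run, since 1 group of 2 libraries allows none, and intervals for counting error would not cover the spread between mice. Replicates were numbered in accession order. Every Rab gene with a nearest shared region is named, with the 15 strongest regions, all promoter regions and the 5 genes with most regions, ties included, per pathway list. The Rab members, groups, pathway lists, markers and strings were chosen with earlier results of these data known. Of 37 listed exchange factors, Dennd2b was not matched.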

Additional observations from a re-analysis of the deposited data

How the results depend on the processing

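Of 55 alternative values, 46 differed little from those reported. The limit was 1.5 times for a count, and the spread between the libraries for a difference or a median fold. Only the difference in percent of genes could change sign, and it did so in no alternative. The number of shared regions nearest to a Rab TSS was 59 from replicate 2 peaks alone and 47 from replicate 1 peaks alone, in place of 35, because each list holds peaks without a partner. Regions within 50 kb numbered 114 and 82, in place of 65. With a window of 10 kb, 12 Rab genes and 16 regions were found in place of 30 and 65, and with 100 kb there were 124 regions. The percent of Rab genes with a nearest shared region minus that of genes of similar length was 12.5 points. It was 7.12 with a reciprocal overlap of 50%, 14.9 with TSSs of protein-coding transcripts only, 10.9 within 50 kb, 10.6 from replicate 2 alone and 12.7 from replicate 1 alone. Reciprocal overlap left 16 Rab genes in place of 21. The count of genes with a region inside the gene, 16, was chosen after seeing the data. No paired analysis was possible because there is 1 group. A difference of 12.5 points among 59 genes rests on few genes, and no listed peak had fewer than 7 fragments.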

Other observations

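The promoters of the Rab genes were searched for the same strings, in the 300 bp that RefSeq promoters span from before to just after the TSS. Of 59 Rab genes, 48 matched this table. TCACGTGA, the string bound by MiT factors such as TFEB, which drive lysosomal genes, was present in 3 of them (Rab21, Rab24 and Rab5a), or 6.25%, against 1.01% of 27025 promoters. The shorter E-box CACGTG, which lies inside it, was in 5 (10.4% against 7.24%), namely the same genes with Rab20 and Rab23. A match is not a site, and the difference was not tested. The SMAD string was in 7 of the 48 Rab promoters (14.6%, against 18%), and the SMAD palindrome in none. The C/EBP string was in 3 (6.25% against 10.8%) and the nuclear receptor string in 5 (10.4% against 16%). Shares of the PU.1, ETS and RUNX strings were slightly above those of all promoters, and those of the AP-1 and STAT strings slightly below. Of the 11 strings TCACGTGA had the largest excess, and it rests on 3 promoters.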
